A study of Arabidopsis thaliana with 12 samples.

Results

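The roots of Arabidopsis thaliana seedlings raised with PS-SO3H nanoplastics were compared with the roots of seedlings raised without particles, across every gene of the authors' deposited table for these groups. That table held 23818 of the 24912 distinct genes in the 4 deposited tables of the series. PS-SO3H denotes polystyrene particles that carry sulfonic acid groups, and PS-NH2 denotes polystyrene particles that carry amino groups. All seedlings were wild type Col, 10 days old, and stood on 1/2 MS medium. The groups used here were roots with PS-SO3H at 50 ug/ml, roots with PS-NH2 at 50 ug/ml, leaves with PS-SO3H at 50 ug/ml, roots without particles and leaves without particles. Each of the 6 groups of the series had 2 libraries, so the main comparison rested on 4 libraries. The labels do not say whether the 2 libraries of a group came from separate plants or cultures, so the p-values measure only the spread between these libraries, which may be technical. The series text also names a test made for samples without replicates, while the tables carry the name of DESeq2, and the sources used here do not settle how the deposited p-values were made. Every p-value and SE below holds only as far as the deposited p-values do.

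The levels below are the authors' deposited levels of each group in their table, on the scale of reads divided by a size factor and not by gene length. The table gives 1 level per group and none per library, so no SD can be given and the depth per library is unknown. The log2 fold change is the deposited PS-SO3H value over the control value. Its error, written after ±, is the SE recovered from the deposited p-value. Genes with a deposited adjusted p below 0.05 were called changed. In whole-root RNA, fewer cells of a type and less RNA per cell cannot be told apart.

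The tissue label fitted its markers. The root hair gene COBL9 stood at 966 in PS-SO3H roots and 588 in control roots, against 8.86 in PS-SO3H leaves and 7.56 in control leaves of the deposited leaf table. CASP1, a membrane protein of the endodermal Casparian strip, stood at 2804 in PS-SO3H roots and 2294 in control roots, against 22 in PS-SO3H leaves and 24.3 in control leaves. The light-harvesting gene LHCB1.1 stood at 27.3 in PS-SO3H roots and 73.9 in control roots, against 68045 in PS-SO3H leaves and 59675 in control leaves. Green-tissue genes made up a small part of the root RNA, and some of them were called lower with PS-SO3H, as described further on. The leaf table was normalized separately from the root table, so these levels show only the order of magnitude.

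As background, roots of the mustard family store myrosinases, which are beta-glucosidases that release toxic products from glucosinolates, in compartments of the endoplasmic reticulum known as ER bodies. In Arabidopsis the main enzyme of these bodies is PYK10, and jacalin-type lectins bind it once the cell breaks. Roots also make triterpenes such as thalianol and marneral from genes that lie side by side on a chromosome. Root hairs are outgrowths of epidermal cells that enlarge the surface in contact with the medium, and their growth draws on a set of wall proteins and actin regulators.

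Across the authors' deposited table, 1152 of 23818 genes were called, which is 4.84%. Of these, 687 genes (2.88%) were higher and 465 genes (1.95%) were lower in PS-SO3H roots than in control roots. Most differences were small: the median log2 fold change was 0.61 among the genes called higher and -0.63 among the genes called lower, and 116 genes higher and 92 genes lower passed an absolute log2 fold change of 1. The full span of called genes ran from -2.34 for the peroxidase gene PRX52 to 3.86 for the chaperone gene BIP3. The smallest absolute log2 fold change that was called was 0.24, and the median SE over all genes was 0.16. Calls leaned upward among abundant genes, with 361 higher and 171 lower of 5164 genes at a mean level of 1000 and over. Between 200 and 1000 the same counts were 214 higher and 196 lower of 8386 genes.

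**Figure D1:**
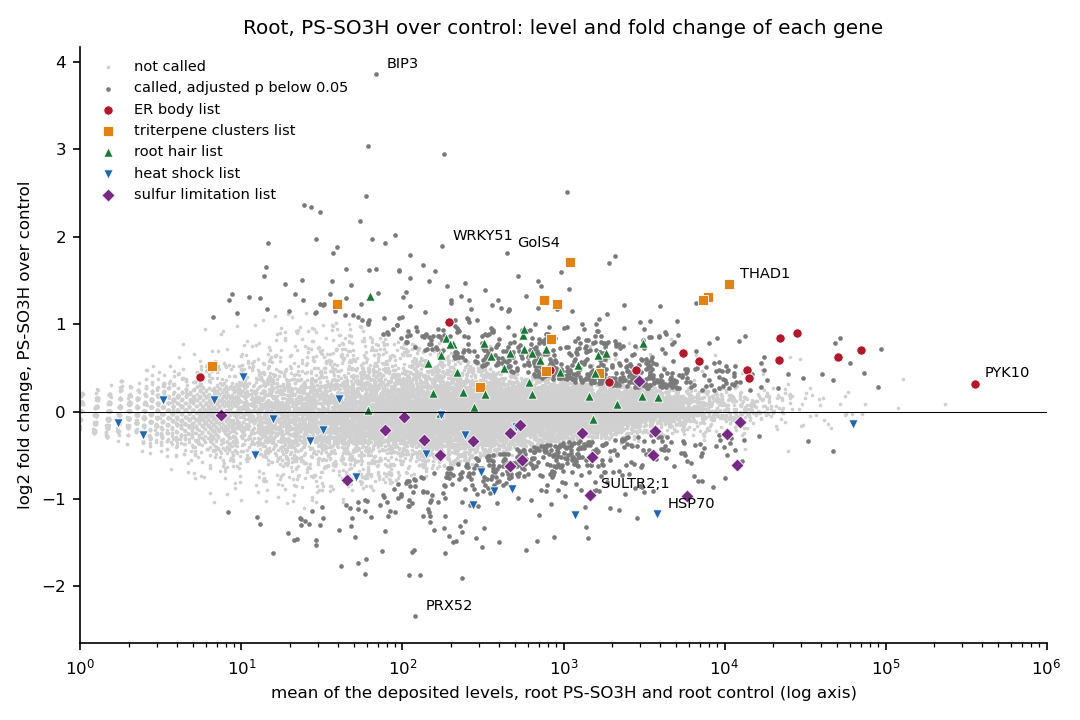
Deposited log2 fold change of PS-SO3H roots over control roots (vertical axis) against the mean of the 2 group levels (horizontal axis, log scale) for the genes with a mean level of at least 1; dark points are called genes, light points are genes not called, and coloured symbols mark the members of 5 lists, called or not. The called genes spread from -2.34 for PRX52 to 3.86 for BIP3, and PYK10 sits farthest to the right at 0.32.

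Genes were grouped into 42 lists of pathways, complexes and cell type markers. The lists together had 1025 distinct members, of which 1006 were in the deposited table, and 146 of these (14.5%) were higher and 109 (10.8%) were lower in PS-SO3H roots, against 2.88% and 1.95% of all genes. The members and lists were chosen with earlier results of these data known, so these shares are a description and no test. Each count below of list members called in PS-SO3H roots stands against the same 2.88% and 1.95% of all genes. Listed genes also had higher levels: 847 of the 1006 members reached a mean level of 50, against 17794 of 23818 genes. The ER body list and the triterpene list had the largest shares of members called higher. The photosynthesis, sulfur and heat shock lists were called almost wholly on the lower side. Root meristem, clock and seed storage lists had no called member.

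**Figure D2:**
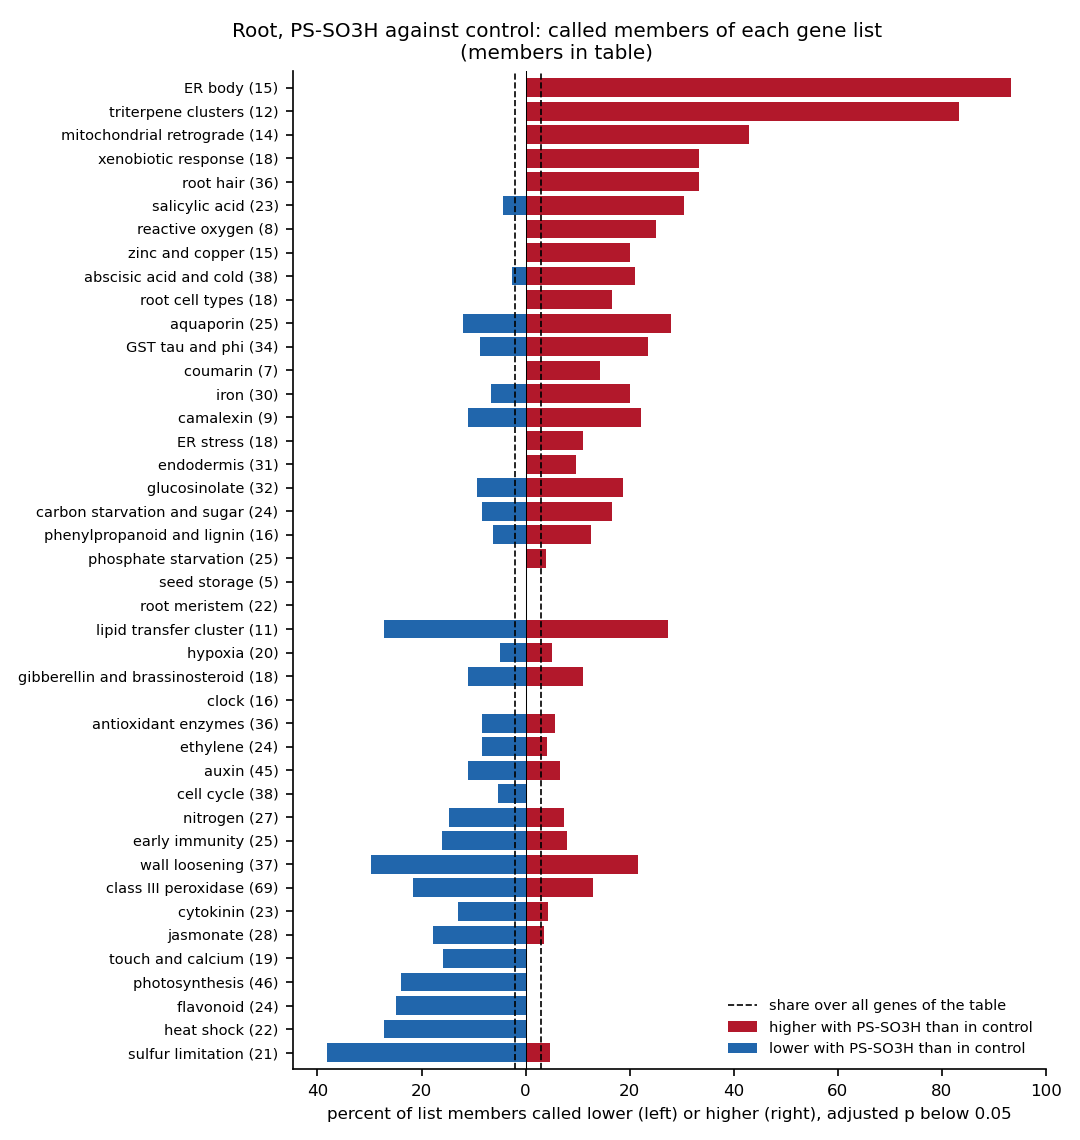
Percent of each list's members in the deposited table that were called higher (to the right) or lower (to the left) in PS-SO3H roots than in control roots, with the shares over all genes, 2.88% and 1.95%, as lines. The ER body list had 14 of 15 members higher and the photosynthesis list 11 of 46 members lower.

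The ER body genes rose almost as a whole. By the authors' deposited table, 14 of 15 members were higher in PS-SO3H roots and none was lower, with a median log2 fold change of 0.58. The summed level of the list was 690150 in PS-SO3H roots and 502714 in control roots. PYK10 (AT3G09260), the main myrosinase of the root and the gene of the highest level among all called genes, stood at 396503 in PS-SO3H roots against 317901 in control roots (log2 fold change 0.32 ± 0.09, adjusted p = 0.0067). Its level per kilobase of transcript was 219547 in PS-SO3H roots and 176025 in control roots, the highest of the list. NAI2 (AT3G15950), which is needed to form ER bodies, stood at 25976 in PS-SO3H roots against 17320.5 in control roots (log2 fold change 0.58 ± 0.08, adjusted p = 8.2e-11). NAI1 (AT2G22770), the transcription factor that controls ER body genes, stood at 2142 in PS-SO3H roots against 1689 in control roots (log2 fold change 0.34 ± 0.11, adjusted p = 0.044). The enzyme, the structural protein and the regulator thus were all called higher, with the regulator and PYK10 at the small end. The ER body membrane proteins MEB1 (AT4G27860) and MEB2 (AT5G24290) had log2 fold changes of 0.48 ± 0.09 and 0.47 ± 0.12.

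The lectins that bind PYK10 moved more than the enzyme did. PBP1 (AT3G16420), the PYK10-binding protein, stood at 87129.8 in PS-SO3H roots against 53424 in control roots (log2 fold change 0.71 ± 0.09, adjusted p = 8.7e-12) in the authors' deposited table. JAL22 (AT2G39310) stood at 36666 in PS-SO3H roots against 19642 in control roots (log2 fold change 0.90 ± 0.10, adjusted p = 1.5e-15). JAL33 (AT3G16450) stood at 28213 in PS-SO3H roots against 15721 in control roots (log2 fold change 0.84 ± 0.11, adjusted p = 3.4e-13). These 3 lectins were abundant in both groups, and their fold changes exceeded that of PYK10, although the difference between genes was not tested. JAL31 (AT3G16430), JAL34 (AT3G16460) and JAL35 (AT3G16470) had log2 fold changes of 0.67 ± 0.10, 0.62 ± 0.09 and 0.39 ± 0.08. JAL23 was the member not called, at 6.26 in PS-SO3H roots against 4.78 in control roots with a log2 fold change of 0.39. Among further beta-glucosidases, BGLU18 (AT1G52400), which releases abscisic acid from its glucose ester, stood at 260.4 in PS-SO3H roots against 128 in control roots (log2 fold change 1.02 ± 0.21, adjusted p = 8.3e-05). BGLU21 (AT1G66270) and BGLU22 (AT1G66280), close copies of each other and of PYK10, had log2 fold changes of 0.48 ± 0.08 and 0.58 ± 0.08. The authors' counting could have split reads between such copies, so their separate values are uncertain.

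Most of these lectin genes lie together on chromosome 3. In the reference annotation, 10 genes in the table run from NSP3 to JAL35, and 9 of them were higher in PS-SO3H roots, with a median log2 fold change of 0.61 over the 10 genes. The 10 genes flanking the stretch, 5 on each side, had 0 higher and 1 lower. Besides the lectins the stretch holds the nitrile-specifier proteins, which direct glucosinolate breakdown towards nitriles. NSP1 (AT3G16400) stood at 59267 in PS-SO3H roots against 38985 in control roots (log2 fold change 0.60 ± 0.09, adjusted p = 1.6e-09), and NSP3 (AT3G16390) stood at 502 in PS-SO3H roots against 216 in control roots (log2 fold change 1.21 ± 0.18, adjusted p = 1.1e-09). The gene in the stretch that was not called, AT3G16432, had a level of 0.265 in PS-SO3H roots and 0.256 in control roots. The 250 bases before the annotated start of 4 neighbouring lectin genes are shown because these genes were called in the same direction. They were cut from the RefSeq genome of build TAIR10.1, plus strand, at chr3:5579040-5579289 (PBP1), chr3:5581318-5581567 (JAL31), chr3:5588042-5588291 (JAL33) and chr3:5592241-5592490 (JAL34). Capitals mark runs of at least 12 bases that also occur in another of the 4 windows.
PBP1: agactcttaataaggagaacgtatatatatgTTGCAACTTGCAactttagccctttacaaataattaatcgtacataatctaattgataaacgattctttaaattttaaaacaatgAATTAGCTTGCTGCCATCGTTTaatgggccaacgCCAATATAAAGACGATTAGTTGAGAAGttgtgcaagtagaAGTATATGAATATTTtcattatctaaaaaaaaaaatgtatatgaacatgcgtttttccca
JAL31: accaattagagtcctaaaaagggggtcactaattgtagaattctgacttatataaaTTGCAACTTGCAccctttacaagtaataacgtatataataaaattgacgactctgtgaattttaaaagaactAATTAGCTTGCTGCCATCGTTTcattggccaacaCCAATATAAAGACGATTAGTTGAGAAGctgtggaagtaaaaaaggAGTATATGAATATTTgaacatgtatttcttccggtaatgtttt
JAL33: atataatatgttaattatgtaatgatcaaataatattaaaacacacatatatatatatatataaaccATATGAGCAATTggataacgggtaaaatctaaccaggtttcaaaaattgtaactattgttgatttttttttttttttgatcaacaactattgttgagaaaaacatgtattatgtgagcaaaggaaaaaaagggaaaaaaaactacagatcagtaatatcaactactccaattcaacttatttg
JAL34: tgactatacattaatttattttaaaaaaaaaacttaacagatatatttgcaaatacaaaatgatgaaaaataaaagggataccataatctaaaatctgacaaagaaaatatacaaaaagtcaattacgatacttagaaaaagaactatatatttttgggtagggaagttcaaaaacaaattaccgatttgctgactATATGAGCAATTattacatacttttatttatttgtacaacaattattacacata
PBP1 and JAL31 shared 76 bases in such runs, the longest of 27 bases, whereas JAL33 and JAL34 shared a single run of 12 bases and shared none with the other pair. The 4 genes had log2 fold changes between 0.62 and 0.84 in PS-SO3H roots over control roots. Motifs were searched on both strands in the same 250 bases of every gene. The W-box letters TTGAC stood in 6 of 15 ER body promoters (40.0%), against 45.3% of all 23616 promoters. The G-box letters CACGTG, which contain the letters ACGTG, stood in 1 of 15 (6.67%), against 6.95% of all promoters. ACGTG, the core of the abscisic acid response element, stood in 2 of 15 (13.3%), against 23.7% of all promoters. Over the genes called higher ACGTG stood in 33.5%, and over the genes called lower in 24.1%.

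Triterpene genes had the largest median rise of any list. The authors' deposited table had 10 of 12 members higher and none lower in PS-SO3H roots, with a median log2 fold change of 1.23, and their summed level was 45656 in PS-SO3H roots and 19014 in control roots. THAS1 (AT5G48010), thalianol synthase, which folds oxidosqualene into thalianol, stood at 11183 in PS-SO3H roots against 4502 in control roots (log2 fold change 1.31 ± 0.11, adjusted p = 9.1e-29). THAH (AT5G48000), the P450 that hydroxylates thalianol, stood at 10471 in PS-SO3H roots against 4335 in control roots (log2 fold change 1.27 ± 0.09, adjusted p = 7.4e-44). THAD1 (AT5G47990), the P450 that desaturates the product, stood at 15708 in PS-SO3H roots against 5725 in control roots (log2 fold change 1.46 ± 0.11, adjusted p = 7.8e-35). All 3 enzymes thus had a log2 fold change above 1. The acyltransferase gene AT5G47980 stood at 1675 in PS-SO3H roots against 512 in control roots (log2 fold change 1.71 ± 0.15, adjusted p = 1.7e-28), and the acyltransferase gene AT5G47950 stood at 1064 in PS-SO3H roots against 597 in control roots (log2 fold change 0.83 ± 0.16, adjusted p = 9.5e-06).

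The thalianol genes lie in a stretch of chromosome 5. From AT5G47940 to AT5G48020 there are 9 genes in the table, and 5 of these were higher, namely the acyltransferase genes AT5G47950 and AT5G47980 with THAD1, THAH and THAS1. RABA4C (AT5G47960) and AT5G47970, which lie between the acyltransferase genes, had log2 fold changes of 0.13 ± 0.19 and -0.12 ± 0.18 and were not called. The 10 flanking genes had 0 higher and 1 lower. In the marneral stretch, also on chromosome 5, MRN1 (AT5G42600), marneral synthase, stood at 1279 in PS-SO3H roots against 546 in control roots (log2 fold change 1.23 ± 0.14, adjusted p = 3.3e-15) in the authors' deposited table. CYP705A12 (AT5G42580) stood at 1065 in PS-SO3H roots against 438 in control roots (log2 fold change 1.28 ± 0.14, adjusted p = 3.3e-16), and MRO (AT5G42590), the marneral oxidase, at 1915 in PS-SO3H roots against 1404 in control roots (log2 fold change 0.45 ± 0.10, adjusted p = 6.7e-04). None of the 7 flanking genes in the table was called. In the arabidiol stretch on chromosome 4, PEN1 (AT4G15340), arabidiol synthase, had a log2 fold change of 0.46 ± 0.13, and 2 of 10 genes in all were higher. Of the 10 genes flanking the arabidiol stretch, 1 was higher and 0 were lower. The highest log2 fold change was 1.19 among these flanking genes and 0.52 inside the stretch. PEN3 (AT5G36150), tirucalladienol synthase, stood at 54.7 in PS-SO3H roots against 23.3 in control roots, and CYP716A2 (AT5G36140), a P450 gene beside it, at 164 in PS-SO3H roots against 57.1 in control roots (log2 fold change 1.53 ± 0.28, adjusted p = 5.4e-06). SQP2 (AT5G24140), of the squalene monooxygenase family that supplies the precursor, stood at 469 in PS-SO3H roots against 178 in control roots (log2 fold change 1.4 ± 0.20, adjusted p = 4.7e-10).

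**Figure D3:**
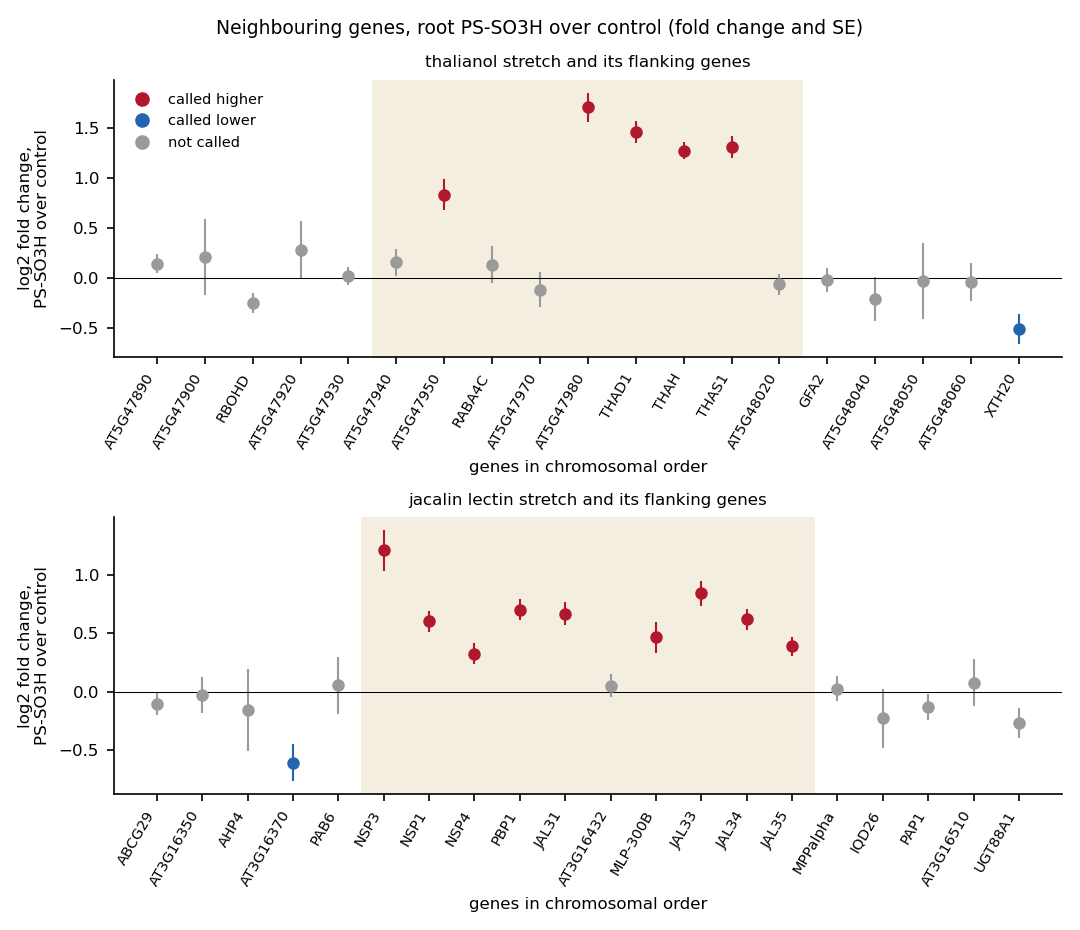
Log2 fold change of PS-SO3H roots over control roots for genes in chromosome order across the thalianol stretch and the jacalin lectin stretch, with 5 flanking genes on each side; bars are SE, red points were called higher, blue points lower and grey points neither. In the thalianol stretch AT5G47980 reaches 1.71, while RABA4C at 0.13 and AT5G47970 at -0.12 lie between called genes.

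**Figure D4:**
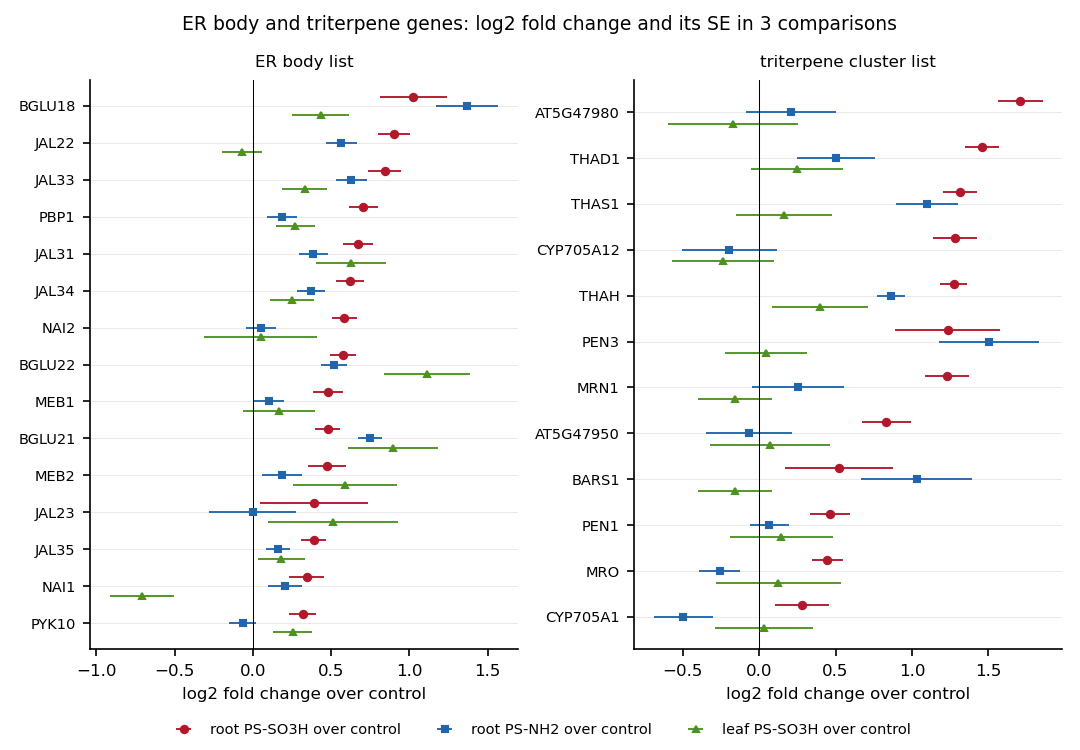
Log2 fold change over control (horizontal axis) with its SE for each ER body gene (left) and triterpene gene (right) in roots with PS-SO3H, roots with PS-NH2 and leaves with PS-SO3H; both root comparisons share the control libraries. AT5G47980 lies at 1.71 in roots with PS-SO3H and at 0.21 in roots with PS-NH2, and NAI1 at 0.34 in root and -0.71 in leaf with PS-SO3H.

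With PS-NH2 fewer members of these gene groups were called, in values that share the control libraries with PS-SO3H. The authors' deposited table for PS-NH2 roots had 387 of 23839 genes (1.62%) higher and 643 (2.7%) lower than in control roots. The ER body list had 7 of 15 members higher with PS-NH2, and its median log2 fold change was 0.20, against 0.58 with PS-SO3H. For NAI2 the log2 fold change was 0.58 with PS-SO3H and 0.06 with PS-NH2, a difference of 0.53 ± 0.13 (adjusted p = 0.0017). PBP1 differed by 0.52 ± 0.13 (adjusted p = 0.0052). These were the 2 of 15 ER body genes whose difference passed, and none was lower. Over the shared genes this difference was higher for 2.26% and lower for 0.974%. The lectin genes JAL22, JAL31, JAL33 and JAL34 were called higher with PS-NH2 too, at 0.57, 0.39, 0.63 and 0.37, and their differences did not pass. BGLU18 was 1.02 with PS-SO3H and 1.37 with PS-NH2, and the difference of -0.34 ± 0.29 did not pass. Of the 12 triterpene genes 5 were higher with PS-SO3H than with PS-NH2 when the difference itself was tested. THAS1 was 1.31 with PS-SO3H and 1.1 with PS-NH2, which did not pass, whereas the acyltransferase gene AT5G47980 was 1.71 with PS-SO3H and 0.21 with PS-NH2 (adjusted p of the difference = 4.1e-04). CYP705A12 was 1.28 with PS-SO3H and -0.19 with PS-NH2 (adjusted p of the difference = 0.0012).

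The gene with the largest rise of all encodes an ER chaperone, and few other genes of the ER stress list were called. BIP3 (AT1G09080), a stress-inducible form of the luminal chaperone BiP, stood at 128 in PS-SO3H roots against 8.84 in control roots (log2 fold change 3.86 ± 0.35, adjusted p = 5.4e-25) in the authors' deposited table. SARA1A (AT1G09180), a GTPase of the vesicle coat that leaves the ER, stood at 57.3 in PS-SO3H roots against 16.3 in control roots (log2 fold change 1.82 ± 0.36, adjusted p = 2.2e-05). These were the 2 called members of 18, both higher, where 2.88% of all genes were higher and 1.95% lower. BIP1 and BIP2, the constitutive forms, had log2 fold changes of -0.18 ± 0.08 and 0.03 ± 0.08, and BZIP60, a transcription factor of the unfolded protein response, had 0.27 ± 0.12. The control libraries gave BIP3 a level of 2.66 in the deposited PS-NH2 table, against 8.84 in the PS-SO3H table, so its fold change rests on a low and uncertain control level. Its log2 fold change with PS-NH2 was 0.33, and the difference of 3.53 ± 0.45 passed (adjusted p = 1.9e-12).

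Some of the strongest changes fell on genes outside the lists, chosen here after their values were seen. AT1G18830, which the deposited description places with SEC31, a protein of the coat of vesicles that leave the ER, stood at 109 in PS-SO3H roots against 13.3 in control roots (log2 fold change 3.04 ± 0.34, adjusted p = 2.5e-16) in the authors' deposited table. AT3G28510, an AAA-type ATPase, stood at 322 in PS-SO3H roots against 41.7 in control roots (log2 fold change 2.95 ± 0.25, adjusted p = 2.9e-29). AT5G09570, of the Cox19-like mitochondrial family, stood at 99.9 in PS-SO3H roots against 18.0 in control roots (log2 fold change 2.47 ± 0.33, adjusted p = 2.2e-11). WRKY51 (AT5G64810), a transcription factor of defence, stood at 278 in PS-SO3H roots against 74.9 in control roots (log2 fold change 1.89 ± 0.23, adjusted p = 1.3e-13). GolS4 (AT1G60470), a galactinol synthase that starts the synthesis of raffinose sugars, stood at 694 in PS-SO3H roots against 197 in control roots (log2 fold change 1.82 ± 0.16, adjusted p = 1.0e-25), and with PS-NH2 its log2 fold change was 1.88. CYP710A4 (AT2G28860), of the sterol desaturase family, stood at 145 in PS-SO3H roots against 35.7 in control roots (log2 fold change 2.02 ± 0.28, adjusted p = 1.6e-10). BGAL7 (AT5G20710), a beta-galactosidase, and CER4 (AT4G33790), a fatty acyl reductase that makes primary alcohols, had log2 fold changes of 1.47 ± 0.20 and 1.37 ± 0.26.

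Among the genes called lower, GH3.2 (BRU6, AT4G37390), which joins auxin to amino acids, stood at 158 in PS-SO3H roots against 463 in control roots (log2 fold change -1.55 ± 0.18, adjusted p = 5.8e-15) in the authors' deposited table. The P450 genes CYP706A1 (AT4G22690) and CYP706A2 (AT4G22710) stood at 365 in PS-SO3H roots against 1014 in control roots, and at 153 in PS-SO3H roots against 419 in control roots, with log2 fold changes of -1.48 ± 0.13 and -1.45 ± 0.20. The serine carboxypeptidase-like gene scpl31 (AT1G11080) stood at 767 in PS-SO3H roots against 2084 in control roots (log2 fold change -1.44 ± 0.14, adjusted p = 1.5e-22). BGLU47 (AT4G21760), a beta-glucosidase, had -1.61 ± 0.28. Abundant transcripts changed by less. Among the highest, DR4 (AT1G73330), a protease inhibitor family protein, stood at 115729 in PS-SO3H roots against 70507 in control roots (log2 fold change 0.71 ± 0.09, adjusted p = 5.0e-14), and AGP31 (AT1G28290), an arabinogalactan protein of the wall, at 39678 in PS-SO3H roots against 54050.5 in control roots (log2 fold change -0.45 ± 0.08, adjusted p = 4.2e-07). The cysteine protease gene AT4G11320 had 0.44 ± 0.07, the transketolase gene AT3G60750 had -0.28 ± 0.09, and the pectin methylesterase gene PME3 had -0.32 ± 0.08.

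A share of the root hair genes was higher in PS-SO3H roots. Of 36 members in the authors' deposited table, 12 rose and none fell, against 2.88% and 1.95% of all genes. Their median log2 fold change was 0.55. The wall and growth genes held 11 of the calls, out of 26, and the regulators held 1 of 10, RSL2 (AT4G33880), a bHLH factor that drives hair growth, at 0.64 ± 0.18. COBL9 (AT5G49270), a membrane-anchored protein needed for hair growth, stood at 966 in PS-SO3H roots against 588 in control roots (log2 fold change 0.72 ± 0.15, adjusted p = 7.6e-05). The hair expansins EXPA7 (AT1G12560) and EXPA18 (AT1G62980) had log2 fold changes of 0.59 ± 0.14 and 0.67 ± 0.16. XTH26 (AT4G28850), a xyloglucan-modifying enzyme, stood at 89.7 in PS-SO3H roots against 35.9 in control roots (log2 fold change 1.32 ± 0.32, adjusted p = 0.0016). RHS10 (AT1G70460), a proline-rich receptor kinase, had 0.87 ± 0.16, and the actin depolymerizing factors ADF8 (AT4G00680) and ADF11 (AT1G01750) had 0.78 ± 0.20 and 0.72 ± 0.16. PRP1 (AT1G54970), a proline-rich wall protein, stood at 753 in PS-SO3H roots against 391 in control roots, and missed the threshold (log2 fold change 0.95 ± 0.31, adjusted p = 0.054).

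The control level of some root hair genes differed between the 2 root comparisons. For 10 of the 35 members with a mean level of at least 50 in both root tables, the level of the same control libraries departed by over 0.1 on the log2 scale from the usual ratio of the authors' deposited tables, against 127 of 17664 genes (0.719%). XTH26, for example, had a control level of 35.9 in the PS-SO3H table and 24.2 in the PS-NH2 table. With PS-NH2 the root hair list had 0 members higher and 8 lower, and its median was -0.29. The tested difference was higher with PS-SO3H than with PS-NH2 for 17 of 36 members and lower for none, against 2.26% and 0.974% of the 23506 shared genes. EXPA18 was 0.67 with PS-SO3H and -0.62 with PS-NH2 (adjusted p of the difference = 2.1e-05), and RHS12, a pectin methylesterase family protein of hairs, was 0.67 with PS-SO3H and -0.81 with PS-NH2 (adjusted p of the difference = 3.3e-06). Among symbol-bearing genes whose mean level reached 50 in both root tables, PRP1 had the largest difference, 2.54 ± 0.39, at -1.60 with PS-NH2.

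**Figure D5:**
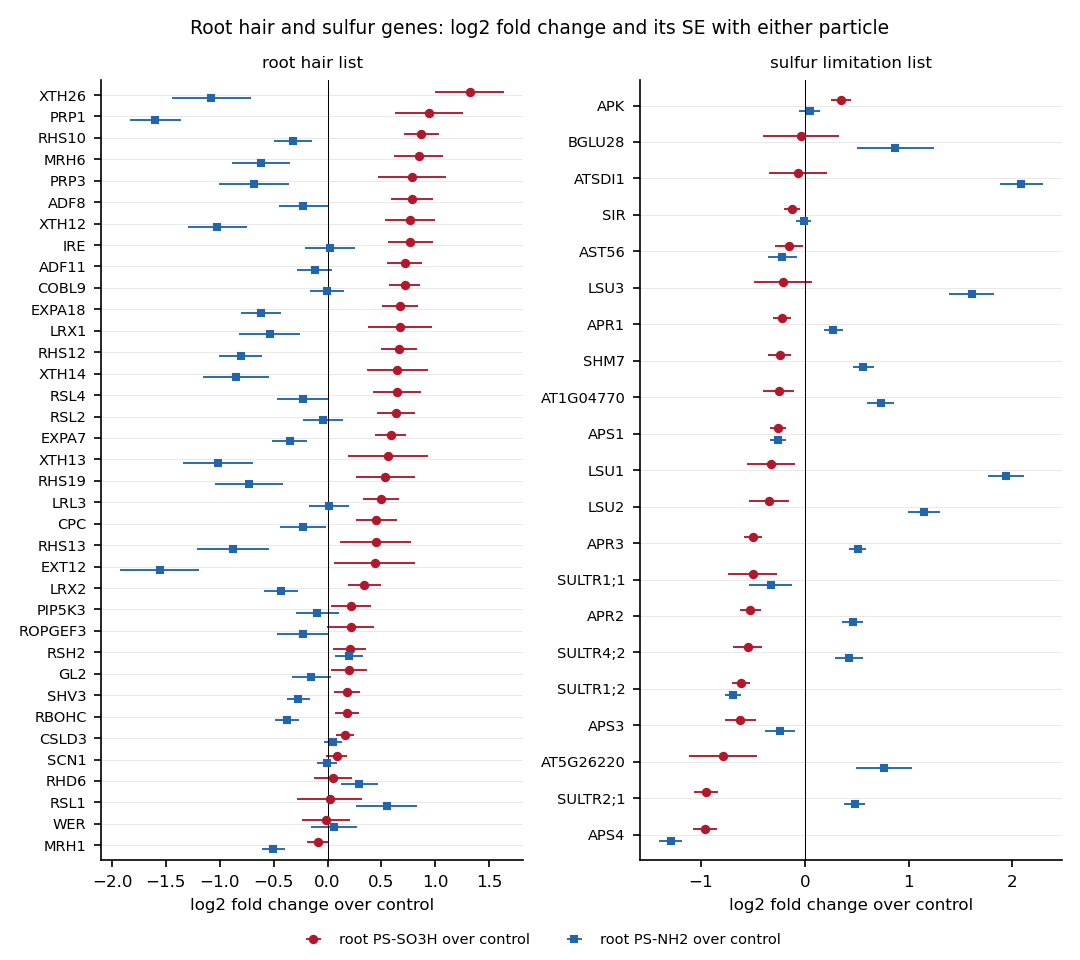
Log2 fold changes over control roots (horizontal axes) of all root hair and sulfur genes in the table with PS-SO3H and with PS-NH2, with SE bars; both particles share the control libraries. Most root hair genes lie above 0 with PS-SO3H and below 0 with PS-NH2, and all sulfur genes other than APK lie below 0 with PS-SO3H.

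Most genes of other root cell types were not called. Over all genes 2.88% were higher and 1.95% lower. Of 31 endodermis genes, 3 were higher and none lower in the authors' deposited table, namely CASP5 (AT5G15290) at 0.92 ± 0.28, the Casparian strip receptor GSO1 (AT4G20140) at 0.34 ± 0.11, and CYP86A1 (AT5G58860), a suberin hydroxylase, at 0.27 ± 0.09. CASP1 had 0.29 ± 0.11 and MYB36, the regulator of the strip, -0.04 ± 0.17, and neither was called. Of 18 further cell type markers 3 were higher, COBL9 and EXPA7 of hairs and SUC2 (AT1G22710), the sucrose carrier of phloem companion cells, at 0.38 ± 0.11. None of 22 root meristem genes was called. Of 38 cell cycle genes 2 were lower, CYCD3;1 (AT4G34160), a D-type cyclin, at -0.82 ± 0.12 and the cytokinesis kinesin HIK (AT1G18370) at -0.45 ± 0.14, and 34 of the 38 had a negative log2 fold change, with a median of -0.19. CYCB1;1, a mitotic cyclin, stood at 163 in PS-SO3H roots against 206 in control roots (log2 fold change -0.33 ± 0.20, not called).

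Wall-loosening genes were called in both directions. Of 37 members in the authors' deposited table, 8 rose and 11 fell, against 2.88% and 1.95% of all genes. Among expansins, which loosen the bonds between wall polymers, EXPA1 (AT1G69530) stood at 1148 in PS-SO3H roots against 2158 in control roots (log2 fold change -0.91 ± 0.10, adjusted p = 8.3e-17), and EXLA3 (AT3G45960) at 90.9 in PS-SO3H roots against 279 in control roots (log2 fold change -1.62 ± 0.24, adjusted p = 3.7e-09). EXPA15, EXPA6, EXPA4 and EXPB3 also fell (-0.92 ± 0.09, -0.83 ± 0.11, -0.79 ± 0.09 and -0.76 ± 0.08). EXLB1 (AT4G17030) rose, at 0.79 ± 0.13. Among the XTH enzymes, which cut and rejoin xyloglucan, XTH17 (AT1G65310) and XTH15 (AT4G14130) rose, at 0.97 ± 0.14 and 0.82 ± 0.11, while XTH22 (AT5G57560) and XTH9 (AT4G03210) fell, at -1.33 ± 0.22 and -0.61 ± 0.11. The direction differed from PS-NH2 for several of them. EXPA1 was -0.91 with PS-SO3H and 0.34 with PS-NH2 (adjusted p of the difference = 5.0e-15). XTH15 was 0.82 with PS-SO3H and -0.36 with PS-NH2 (adjusted p of the difference = 3.6e-11).

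Class III peroxidases, secreted enzymes that build or loosen the wall with hydrogen peroxide, were also split. Of 69 members in the authors' deposited table, 9 rose and 15 fell, against 2.88% and 1.95% of all genes. PRX52 (AT5G05340), a peroxidase of lignin formation, stood at 39.6 in PS-SO3H roots against 201 in control roots (log2 fold change -2.34 ± 0.27, adjusted p = 8.4e-16), the strongest fall of any called gene. AT5G39580, described as peroxidase 62, stood at 98.4 in PS-SO3H roots against 368 in control roots (log2 fold change -1.90 ± 0.21, adjusted p = 2.0e-16). PRX37 (AT4G08770) and PRX25 (AT2G41480) had -0.96 ± 0.14 and -0.91 ± 0.14. In the other direction AT3G03670 stood at 34.3 in PS-SO3H roots against 14.2 in control roots (log2 fold change 1.28 ± 0.38, adjusted p = 0.019), and PRX34 (AT3G49120), which makes apoplastic hydrogen peroxide, at 21182 in PS-SO3H roots against 13773 in control roots (log2 fold change 0.62 ± 0.09, adjusted p = 3.5e-10). PRX25 was -0.91 with PS-SO3H and 0.65 with PS-NH2, and AT2G39040 was 0.88 with PS-SO3H and -1.53 with PS-NH2, and both differences passed (adjusted p = 1.1e-13 and 7.5e-15). PRX52 fell with both particles, at -2.34 with PS-SO3H and -2.59 with PS-NH2, and the difference of 0.24 ± 0.38 did not pass. Of 8 NADPH oxidase genes 2 rose, AT4G25090 at 0.66 ± 0.11 and AT1G19230 at 0.51 ± 0.13. RBOHD, the main oxidase of stress signalling, had -0.25 ± 0.10 and was not called.

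Most antioxidant enzymes were not called. Of 36 members in the authors' deposited table, 2 rose and 3 fell, against 2.88% and 1.95% of all genes. The 3 that fell belong together: CSD1 (AT1G08830) and CSD2 (AT2G28190) are copper/zinc superoxide dismutases of cytosol and plastid, and CCS (AT1G12520) is their copper chaperone. CSD1 stood at 1283 in PS-SO3H roots against 2136 in control roots (log2 fold change -0.74 ± 0.11, adjusted p = 9.8e-09), and CCS and CSD2 had -0.70 ± 0.16 and -0.57 ± 0.12. The 2 that rose were GPX2 (AT2G31570), a glutathione peroxidase, at 0.41 ± 0.11 and GSH1 (AT4G23100), which makes the precursor of glutathione, at 0.37 ± 0.09. None of 20 catalase and ascorbate cycle genes was called, with CAT2 at -0.05 ± 0.09 and APX1 at 0.16 ± 0.08.

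All called genes of the xenobiotic response and mitochondrial retrograde lists were higher in PS-SO3H roots. The shares over all genes were 2.88% higher and 1.95% lower. Of 18 xenobiotic response genes in the authors' deposited table, 6 rose, among them UGT74E2 (AT1G05680), a glucosyltransferase that acts on indole-3-butyric acid, at 1036 in PS-SO3H roots against 558 in control roots (log2 fold change 0.89 ± 0.12, adjusted p = 1.2e-10). The MATE exporter gene AT2G04050 stood at 20.5 in PS-SO3H roots against 6.99 in control roots (log2 fold change 1.55 ± 0.38, adjusted p = 0.0019), and the P450 gene CYP81D11 (AT3G28740) had 0.60 ± 0.11. Of 14 mitochondrial retrograde genes 6 rose. AOX1A (AT3G22370), the alternative oxidase that bypasses part of the respiratory chain, stood at 2076 in PS-SO3H roots against 1297 in control roots (log2 fold change 0.68 ± 0.11, adjusted p = 8.8e-08), and AT2G21640, a marker of oxidative stress, at 204 in PS-SO3H roots against 63.5 in control roots (log2 fold change 1.68 ± 0.24, adjusted p = 6.9e-10). ANAC013 (AT1G32870), a transcription factor that activates such genes, had 0.61 ± 0.16. Among the glutathione S-transferases, which attach glutathione to foreign compounds, 6 of 24 of the tau class rose and none fell, with GSTU26 (AT1G17190) at 0.96 ± 0.11 and GSTU25 (AT1G17180) at 0.91 ± 0.10. In the phi class 2 of 10 rose and 3 fell. GSTF9 (AT2G30860) stood at 45973 in PS-SO3H roots against 34137 in control roots (log2 fold change 0.43 ± 0.08, adjusted p = 1.8e-05), whereas GSTF3 (AT2G02930) had -1.30 ± 0.38. GSTF6 and GSTF7, close copies whose separate values are uncertain, had -0.74 ± 0.15 and -0.69 ± 0.13. GSTF2 (AT4G02520) was 0.32 with PS-SO3H and -1.23 with PS-NH2 (adjusted p of the difference = 4.6e-38).

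Some genes of the salicylic acid pathway were higher in PS-SO3H roots. Of 23 members in the authors' deposited table, 7 rose and 1 fell, against 2.88% and 1.95% of all genes. Among the rises were 2 of 4 targets, 3 of 8 genes of salicylic and pipecolic acid synthesis or breakdown, and 2 of 11 regulators. ICS1, EDS5 and PBS3, which act in making salicylic acid, had 0.16 ± 0.19, 0.30 ± 0.12 and 0.25 ± 0.37 and were not called. PR5 (AT1G75040), a thaumatin-like pathogenesis protein, stood at 44.9 in PS-SO3H roots against 8.90 in control roots (log2 fold change 2.34 ± 0.38, adjusted p = 9.5e-08), and PR2 (AT3G57260), a glucanase, at 46.5 in PS-SO3H roots against 11.8 in control roots (log2 fold change 1.98 ± 0.38, adjusted p = 1.1e-05). WRKY54 (AT2G40750) and WRKY70 (AT3G56400), transcription factors of this pathway, had 0.92 ± 0.25 and 0.88 ± 0.25. DMR6 (AT5G24530) and DLO1 (AT4G10500), which hydroxylate salicylic acid, had 0.70 ± 0.12 and 0.82 ± 0.24, and ALD1 (AT2G13810), of pipecolic acid synthesis, had 0.80 ± 0.26. FMO1 (AT1G19250), which makes N-hydroxypipecolic acid, fell (-1.36 ± 0.35). PR1 was at or near 0, at 1.13 against 1.33, in PS-SO3H roots against control roots. With PS-NH2, PR2 had -0.30 and PR5 0.29, and both differences passed (adjusted p = 9.3e-05 and 0.0012). The same control libraries gave PR2 a level of 3.03 in the PS-NH2 comparison, against 11.8 in the PS-SO3H comparison. For PR5 these control levels were 2.93 and 8.90. The fold changes of both genes, and their differences, thus rest on low and uncertain control levels.

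Some jasmonate repressors were lower in PS-SO3H roots. Among the 9 jasmonate regulators of the authors' deposited table, 4 were lower and none was higher: JAZ9 (AT1G70700) at -1.42 ± 0.22, JAZ10 (AT5G13220) at -1.21 ± 0.32, JAZ5 (AT1G17380) at -0.99 ± 0.27 and JAZ6 (AT1G72450) at -0.70 ± 0.16. JAZ10 stood at 38.3 in PS-SO3H roots against 88.5 in control roots. None of 13 synthesis genes was called. The vegetative storage proteins parted, with VSP1 (AT5G24780) at 0.49 ± 0.11 and VSP2 (AT5G24770) at -0.59 ± 0.08, and VSP2 was 0.37 with PS-NH2 (adjusted p of the difference = 1.2e-14). The whole list had 1 of 28 higher and 5 lower, against 2.88% and 1.95% of all genes. Of 24 ethylene genes EBF2 (AT5G25350), which marks EIN3 for breakdown, rose (0.31 ± 0.09), and the response factors ERF6 (AT4G17490) and RRTF1 (AT4G34410) fell (-0.82 ± 0.16 and -1.15 ± 0.36).

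Some early immune, touch and heat genes were lower in PS-SO3H roots, and most members of each list were not called. Over all genes 2.88% were higher and 1.95% lower. Of 25 early immunity genes in the authors' deposited table, 2 rose and 4 fell: NHL10 (AT2G35980) had 1.07 ± 0.19 and the zinc finger gene ZAT12 (AT5G59820) 0.59 ± 0.17, while WRKY53 (AT4G23810) had -0.97 ± 0.31 and WRKY33 (AT2G38470) -0.56 ± 0.12. Of 19 touch and calcium genes 3 fell and none rose. TCH3 (AT2G41100), a calmodulin-like protein, stood at 469 in PS-SO3H roots against 1272 in control roots (log2 fold change -1.44 ± 0.13, adjusted p = 1.4e-25), and XTH22, known as TCH4, had -1.33 ± 0.22. Of 22 heat shock genes 6 fell and none rose. HSP90.1 (AT5G52640) stood at 714 in PS-SO3H roots against 1629 in control roots (log2 fold change -1.19 ± 0.11, adjusted p = 3.1e-23), and HSP70 (AT3G12580) at 2347 in PS-SO3H roots against 5305 in control roots (log2 fold change -1.18 ± 0.09, adjusted p = 1.4e-33). With PS-NH2 these chaperones had -1.4 and -1.32, and in leaf they had -0.97 and -1.14. No difference of a heat shock gene between the particles passed.

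Glucosinolate synthesis was called in parts. Of 32 genes in the authors' deposited table, 6 rose and 3 fell, against 2.88% and 1.95% of all genes. CYP83B1 (AT4G31500), of indole glucosinolate synthesis, stood at 20049 in PS-SO3H roots against 13668 in control roots (log2 fold change 0.55 ± 0.09, adjusted p = 1.6e-08), and MAM1 (AT5G23010), which lengthens the methionine chain, at 2649.9 in PS-SO3H roots against 1837 in control roots (log2 fold change 0.53 ± 0.10, adjusted p = 2.9e-05). BCAT4 (AT3G19710) had 0.49 ± 0.10. The 3 that fell belong to indole glucosinolates: MYB51 (AT1G18570), a regulator of their synthesis, stood at 154 in PS-SO3H roots against 316 in control roots (log2 fold change -1.03 ± 0.19, adjusted p = 5.9e-06), CYP81F2 (AT5G57220), a hydroxylase, had -1.14 ± 0.23, and IGMT2 (AT1G21120), a methyltransferase with close copies, had -1.49 ± 0.21. Among the 4 neighbouring methyltransferase genes on chromosome 1, IGMT2 and IGMT4 fell, whereas IGMT1 and IGMT3 had -0.22 ± 0.25 and -0.16 ± 0.10 and were not called. Of 9 camalexin genes 2 rose, CYP79B2 (AT4G39950) at 0.52 ± 0.09 and CYP79B3 (AT2G22330) at 0.42 ± 0.11, which make the precursor that camalexin shares with indole glucosinolates, and GSTF6 fell.

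Several early flavonoid genes were lower in PS-SO3H roots and late ones were not called. The shares over all genes were 2.88% higher and 1.95% lower. The authors' deposited table called 6 of 10 early genes lower: 4CL3 (AT1G65060), FLS1 (AT5G08640), F3'H (AT5G07990), F3H (AT3G51240), CHIL (AT5G05270) and UGT78D2 (AT5G17050), between -0.72 and -0.35. FLS1, flavonol synthase, stood at 3810.1 in PS-SO3H roots against 5863 in control roots (log2 fold change -0.62 ± 0.09, adjusted p = 2.3e-10). CHS, the entry enzyme, had -0.17 ± 0.07 and was not called. DFR, the entry enzyme of anthocyanin synthesis, stood at 48.4 in PS-SO3H roots against 24.3 in control roots (log2 fold change 0.99 ± 0.37, not called), and was 2.99 with PS-NH2. In the phenylpropanoid and lignin list 2 of 16 rose, PAL4 (AT3G10340) at 0.42 ± 0.10 and CAD5 (AT4G34230) at 0.41 ± 0.09, and LAC4 (AT2G38080), a laccase of lignin formation, fell (-0.51 ± 0.12). Of 7 coumarin genes the exporter ABCG37 (AT3G53480) rose (0.39 ± 0.09).

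Iron genes that were called higher included small regulators and a transporter that works inside the plant, while the uptake pair was not called. Of 30 members in the authors' deposited table, 6 rose and 2 fell, against 2.88% and 1.95% of all genes. AT1G47400 (IMA1), a small peptide of the iron deficiency response, stood at 89.1 in PS-SO3H roots against 19.6 in control roots (log2 fold change 2.18 ± 0.35, adjusted p = 5.7e-08). AT1G47395 (IMA2), of the same family, stood at 123 in PS-SO3H roots against 32.3 in control roots (log2 fold change 1.93 ± 0.30, adjusted p = 1.5e-08). NAS2 (AT5G56080), which makes the metal chelator nicotianamine, stood at 1553 in PS-SO3H roots against 699 in control roots (log2 fold change 1.15 ± 0.14, adjusted p = 4.8e-13). OPT3 (AT4G16370), which loads iron into the phloem, had 0.77 ± 0.11. The proton pumps AHA7 (AT3G60330) and AHA2 (AT4G30190) had 0.68 ± 0.13 and 0.28 ± 0.08. The iron store genes FER1 (AT5G01600), a ferritin, and VTL5 (AT3G25190), a vacuolar iron transporter-like protein, fell (-0.63 ± 0.12 and -0.44 ± 0.09). IRT1, the iron transporter of the root surface, stood at 3367 in PS-SO3H roots against 3175 in control roots, and its reductase partner FRO2 at 1384 in PS-SO3H roots against 1129 in control roots. Neither was called (0.08 ± 0.34 and 0.29 ± 0.30). Of 15 zinc and copper genes 3 rose, the reductase FRO4 (AT5G23980) at 0.67 ± 0.13, the copper chaperone CCH (AT3G56240) at 0.47 ± 0.08 and the copper transporter COPT2 (AT3G46900) at 0.41 ± 0.12. COPT2 was -0.64 with PS-NH2 (adjusted p of the difference = 1.4e-07).

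Most genes of sulfate uptake and assimilation were lower in PS-SO3H roots. By the authors' deposited table, 8 of 13 such genes were lower and 1 was higher, and 0 of 8 markers of sulfur limitation were called. Over all genes 1.95% were lower and 2.88% higher. SULTR1;2 (AT1G78000), the main sulfate transporter of the root surface, stood at 9419 in PS-SO3H roots against 14439 in control roots (log2 fold change -0.62 ± 0.09, adjusted p = 1.6e-10). SULTR2;1 (AT5G10180), which moves sulfate within the vasculature, stood at 1002 in PS-SO3H roots against 1936 in control roots (log2 fold change -0.95 ± 0.12, adjusted p = 7.7e-14). APS4 (AT5G43780), an ATP sulfurylase, stood at 3960.5 in PS-SO3H roots against 7709 in control roots (log2 fold change -0.96 ± 0.11, adjusted p = 4.7e-15). The adenylylsulfate reductases APR2 (AT1G62180) and APR3 (AT4G21990), which control the flux, had -0.52 ± 0.11 and -0.50 ± 0.09. APK (AT2G14750), which sends activated sulfate towards glucosinolates, rose (0.35 ± 0.10). With PS-NH2 several of these genes had a positive value. SULTR2;1 was 0.48, APR2 0.46 and APR3 0.51 with PS-NH2, and each difference passed (adjusted p = 5.9e-17, 3.2e-09 and 1.6e-14). The limitation markers LSU1 and SDI1 had -0.33 ± 0.23 and -0.07 ± 0.28 with PS-SO3H, and 1.94 and 2.08 with PS-NH2. In all 12 of 21 members were lower with PS-SO3H than with PS-NH2, and none was higher, against 0.974% and 2.26% of the shared genes. SULTR1;2 fell with both particles, at -0.62 with PS-SO3H and -0.69 with PS-NH2.

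Most nitrogen and phosphate genes were not called. Of 27 nitrogen genes in the authors' deposited table, 2 rose and 4 fell, against 2.88% and 1.95% of all genes. NIR1 (AT2G15620), nitrite reductase, stood at 10278 in PS-SO3H roots against 15229 in control roots (log2 fold change -0.57 ± 0.09, adjusted p = 3.5e-08), and UPM1 (AT5G40850), which makes the siroheme of nitrite and sulfite reductases, had -0.57 ± 0.09. The transporter gene AT3G45680, described as a nitrate excretion transporter, had 0.92 ± 0.10. The ammonium transporter AMT1;2 (AT1G64780) had -0.53 ± 0.09. NRT2.1, the high-affinity nitrate transporter, stood at 647 in PS-SO3H roots against 677 in control roots (log2 fold change -0.07 ± 0.16, not called), and was 1.76 with PS-NH2. Of 25 phosphate starvation genes 1 was called, SQD2 (AT5G01220), of sulfolipid synthesis, at 0.56 ± 0.13.

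Aquaporins and genes of sugar transport, starvation and response were called in both directions. Of 25 aquaporins in the authors' deposited table, 7 rose and 3 fell, against 2.88% and 1.95% of all genes. PIP2;4 (AT5G60660) stood at 2231 in PS-SO3H roots against 1294 in control roots (log2 fold change 0.79 ± 0.24, adjusted p = 0.026) and was -0.83 with PS-NH2 (adjusted p of the difference = 1.9e-06). DELTA-TIP (AT3G16240), a channel of the vacuole membrane, stood at 8176 in PS-SO3H roots against 5058 in control roots (log2 fold change 0.69 ± 0.10, adjusted p = 6.1e-09) and was -0.24 with PS-NH2 (adjusted p of the difference = 3.2e-09). RD28 (AT2G37180), NIP1;2 (AT4G18910) and TIP2;2 (AT4G17340) fell, at -0.69 ± 0.10, -0.54 ± 0.15 and -0.47 ± 0.10. PIP2B, an abundant plasma membrane channel, was not called (0.03 ± 0.09). Of 24 genes of sugar transport, starvation and response 4 rose and 2 fell. SWEET11 (AT3G48740), a sucrose exporter, stood at 1019 in PS-SO3H roots against 363 in control roots (log2 fold change 1.49 ± 0.31, adjusted p = 1.0e-04), and SWEET12 (AT5G23660), its close relative, at 634 in PS-SO3H roots against 282 in control roots (log2 fold change 1.17 ± 0.19, adjusted p = 7.7e-08). With PS-NH2 they had -0.83 and -1.0, and both differences passed (adjusted p = 1.6e-04 and 1.9e-10). The control level of SWEET11 was 363 in the PS-SO3H table and 242 in the PS-NH2 table, from the same libraries. SWEET13 (AT5G50800) fell (-0.97 ± 0.28).

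Hormone genes were scattered. Over all genes 2.88% were higher and 1.95% lower, and several of the counts here are small. Of 45 auxin genes in the authors' deposited table, 3 rose and 5 fell, with the amido synthetases GH3.5 (AT4G27260) and GH3.6 (AT5G54510) at -0.60 ± 0.14 and -0.53 ± 0.15, the influx carrier LAX2 (AT2G21050) at -0.41 ± 0.11, and the carriers PILS3 (AT1G76520) and PILS5 (AT2G17500) at 0.66 ± 0.10 and 0.57 ± 0.11. Of 23 cytokinin genes the oxidase CKX4 (AT4G29740) rose (0.78 ± 0.17), and the oxidases CKX1 (AT2G41510) and CKX6 (AT3G63440) with the response regulator ARR7 (AT1G19050) fell (-1.08 ± 0.25, -0.84 ± 0.20 and -0.84 ± 0.17). Of 18 gibberellin and brassinosteroid genes 2 rose and 2 fell, and GASA6 (AT1G74670) was -1.20 with PS-SO3H and 0.77 with PS-NH2 (adjusted p of the difference = 6.0e-06). Of 38 abscisic acid and cold genes 8 rose and 1 fell. NCED3 (AT3G14440), which limits abscisic acid synthesis, stood at 218 in PS-SO3H roots against 119.7 in control roots (log2 fold change 0.87 ± 0.22, adjusted p = 0.0026), and CYP707A1 (AT4G19230), which breaks abscisic acid down, at 479 in PS-SO3H roots against 256 in control roots (log2 fold change 0.91 ± 0.16, adjusted p = 3.0e-06). KIN1 (AT5G15960), a cold and abscisic acid target with a close copy KIN2, stood at 833 in PS-SO3H roots against 334 in control roots (log2 fold change 1.32 ± 0.18, adjusted p = 2.2e-11). Of 20 hypoxia genes PDC1 (AT4G33070), pyruvate decarboxylase, rose (0.81 ± 0.16) and FTM1 (AT1G43800), an acyl desaturase, fell (-0.74 ± 0.18).

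Lipid transfer genes on chromosome 4 parted within a row of neighbours. AZI1 (AT4G12470), a mediator of systemic defence priming, stood at 1726 in PS-SO3H roots against 4005 in control roots in the authors' deposited table (log2 fold change -1.21 ± 0.11, adjusted p = 2.7e-26). A few genes further on, AT4G12500 stood at 369 in PS-SO3H roots against 164 in control roots (log2 fold change 1.17 ± 0.19, adjusted p = 1.7e-07). AT4G12510 and AT4G12520, near-identical copies whose separate values are uncertain, had 0.89 ± 0.12 and 0.77 ± 0.11. AZI1 was -3.23 with PS-NH2, and the difference of 2.02 ± 0.15 passed (adjusted p = 5.6e-36). LTP3 (AT5G59320) and LTP2 (AT2G38530), on other chromosomes, fell (-0.65 ± 0.15 and -0.44 ± 0.13) and had 1.49 and 1.37 with PS-NH2. The list as a whole had 3 of 11 higher and 3 lower, against 2.88% and 1.95% of all genes.

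Some photosynthesis genes, used as markers of green tissue, were lower in PS-SO3H roots. Of 46 members in the authors' deposited table, 11 fell and none rose, against 1.95% and 2.88% of all genes. Of the 46, 43 had a negative log2 fold change. The summed level was 38932 in PS-SO3H roots and 46260 in control roots. RBCS2B (AT5G38420), a small subunit of Rubisco, stood at 24.5 in PS-SO3H roots against 81.5 in control roots (log2 fold change -1.74 ± 0.34, adjusted p = 2.1e-05), and CA1 (AT3G01500), a carbonic anhydrase, at 28.0 in PS-SO3H roots against 90.3 in control roots (log2 fold change -1.69 ± 0.34, adjusted p = 3.2e-05). LHCB1.1 had -1.43 ± 0.35, with close copies among which reads could be split. RBCS1A and RCA, 2 defining markers of leaf tissue, had -0.24 ± 0.11 and -0.27 ± 0.11 and were not called. LHCB2.1, a further such marker, had -0.60 and was not called either (adjusted p = 0.071). No defining marker was at 0 in either group. With PS-NH2, 3 of 46 were higher and 3 lower, and RBCS2B and CA1 had -1.77 and -1.66. Flavonoid, heat shock, sulfur and touch genes, which also fell with PS-SO3H, are active in leaf too, and the part of green tissue in those results was not tested. Of 16 clock genes none was called, and 5 seed storage genes summed to 15.9 in PS-SO3H roots and 15.1 in control roots.

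Between particles, the tested difference passed for 532 of 23506 shared genes (2.26%) that were higher with PS-SO3H than with PS-NH2, and for 229 (0.974%) that were lower. Both deposited root tables share the control libraries, so the SE of a difference, with a median of 0.23, is too large. The control part of this variance is not known. Taken as equal to the treated part for every gene and removed, it gave counts of 1431 higher and 695 lower. Further genes with large differences, chosen by size, were ATCSLB05 (AT4G15290), of the cellulose synthase-like family, at 1.19 with PS-SO3H and -1.01 with PS-NH2. G3Pp2 (AT4G25220), a glycerol-3-phosphate permease family protein, was 0.95 with PS-SO3H and -1.1 with PS-NH2. KCS6 (AT1G68530), which lengthens the fatty acids of wax, was -0.78 with PS-SO3H and 1.22 with PS-NH2, and RD22 (AT5G25610), a drought-induced protein, was -0.54 with PS-SO3H and 1.33 with PS-NH2. The glutathione S-transferase, aquaporin, zinc and copper, and salicylic acid lists had 7 of 34, 7 of 25, 6 of 15 and 6 of 23 members higher with PS-SO3H than with PS-NH2. Of these lists only the aquaporins had a member lower, NIP1;2 at -0.86 ± 0.20 (adjusted p of the difference = 0.0015).

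In leaf, the authors' deposited table for PS-SO3H had 431 of 23529 genes (1.83%) higher and 618 (2.63%) lower than in control leaves. The fold change in root exceeded that in leaf for 371 of 22720 shared genes (1.63%) and was below it for 205 (0.902%). Of the glucosinolate genes 19 of 32 members were higher in the root-minus-leaf difference and none was lower. BCAT4 was 0.49 in root and -1.07 in leaf (adjusted p of the difference = 2.4e-19), and MAM1 was 0.53 in root and -0.74 in leaf (adjusted p of the difference = 2.9e-12). Triterpene genes had 5 of 12 members higher in root than in leaf, and a leaf median of 0.06. Their leaf levels were low. THAD1, the highest, stood at 117 in PS-SO3H leaves against 98.3 in control leaves, and MRN1 at 1.19 in PS-SO3H leaves against 1.33 in control leaves. At such levels a leaf value near 0 does not show that leaf lacked a response. ER body genes differed in 2 of 15, with JAL22 at 0.90 in root and -0.07 in leaf (adjusted p of the difference = 2.0e-06), and NAI1 at 0.34 in root and -0.71 in leaf (adjusted p of the difference = 6.9e-04). WRKY33 was -0.56 in root and -2.18 in leaf (adjusted p of the difference = 9.1e-15). LTP3 had the opposite signs, at -0.65 in root and 1.75 in leaf (adjusted p of the difference = 8.3e-12). Among photosynthesis genes 3 of 46 were lower in root than in leaf, RBCS2B, CA1 and LHCB1.1.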

How the data were processed

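Total RNA of 12 libraries in 6 groups was copied into cDNA from random primers, per the labels' protocols. The submitters' processing notes give TAIR10 as the genome build. Because the series text describes a small RNA library, the aligner, counting program and strand setting behind these tables count as not given in the sources used here. The authors' deposited tables, made with a DESeq2 method per their names, hold for each gene 1 signal per group, namely reads over a size factor as fitted by the authors, and a log2 fold change, which equals the log2 ratio of the levels. The authors' deposited p-value and adjusted p were used as given, and a recomputed Benjamini-Hochberg adjustment differed by over 1e-06 in 0 genes. With 1 level per group and no level per library, no count test could be run, and precision is known only through the recovered SE.

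The SE was computed as the absolute log2 fold change over the normal quantile of the 2-sided p. Differences between 2 deposited log2 fold changes were divided by the root of the summed squared SEs, given a 2-sided normal p and adjusted over all genes in both tables. The steps were tested on simulated data, with errors drawn independently for the 2 sets of fold changes. That simulation left out the shared control libraries of the 2 root comparisons, so it does not test the particle difference in that setting. Genes were named by a fixed rule: the 12 highest and 12 lowest called genes that carry a symbol and reach a mean level of 50, up to 8 called members per list and direction, the 8 highest and 8 lowest differences, the 5 most abundant called genes per direction, and 15 fixed genes. Some genes outside it are said to be chosen after their values were seen. Others, such as members not called in lists that had calls, were also named outside the rule, without that remark. The members and lists were chosen with earlier results of these data known. Loci were matched to RefSeq annotation of TAIR10.1 (23618 of 23818 found) for names and neighbours, and promoter windows come from that build. Alternatives were other thresholds, re-centring, a level filter, a pseudocount of 10 and, for the particle difference, removal of the shared control variance. That removal took the control and treated parts of the variance as equal, which could not be checked. Python 3.11.15, numpy 2.4.6, pandas 2.3.3, scipy 1.17.1 and matplotlib 3.10.9 were used.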

Additional observations from a re-analysis of the deposited data

Results flagged for a closer look

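Effects that differed between groups when the difference itself was tested are given here as values. Between the particles, which share control libraries in the authors' deposited root tables, 532 genes were higher and 229 lower with PS-SO3H than with PS-NH2. With the assumed shared control variance taken out, the counts were 1431 and 695. Among symbol-bearing genes whose mean level reached 50 in both tables, the largest differences of log2 fold change, PS-SO3H minus PS-NH2, were 2.54 for the proline-rich wall protein PRP1, 2.32 for the sucrose exporter SWEET11, 2.19 for ATCSLB05 and 2.16 for SWEET12. The transcription factor RAP2.6 and the permease G3Pp2 each had 2.05, as did SQP2 of the squalene monooxygenase family, and the P450 gene CYP718 had 2.04. On the lower side the sulfur limitation markers LSU1 and ATSDI1 had -2.27 and -2.15, the lipid transfer protein LTP3 -2.14, the cell wall invertase CWINV5 -2.12 and the wax gene KCS6 -2.00. GASA6, RD22 and the nitrate transporter NRT2.1 had -1.97, -1.88 and -1.83.

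Between tissues, 371 genes had a higher and 205 a lower log2 fold change with PS-SO3H in root than in leaf. Under the same limits the differences, root minus leaf, were 3.88 for the chaperone BIP3, 2.34 for HMT3 of the homocysteine methyltransferase family, 2.21 for the glucosinolate oxygenase FMO GS-OX1, 2.15 for the cytokinin oxidase CKX4 and 2.05 for the expansin EXPA8. WRKY51, CNI1 and GSTF11 had 2.02, 2.01 and 1.95. On the lower side the peroxidase PRX52 had -2.61, LTP3 -2.40, AZI1 -1.89, RBCS2B -1.73, CA1 -1.67 and LHCB1.1 -1.62, and the exporter DTX1 and the storage protein VSP2 had -1.61 and -1.59. RAP2.6, CYP718, CNI1, GSTF11 and DTX1 were themselves not called in PS-SO3H roots (0.25 ± 0.25, 0.46 ± 0.23, -0.02 ± 0.19, 0.07 ± 0.17 and 0.07 ± 0.30). Root and leaf tables were normalized separately.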

How the results depend on the processing

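Counts depended on the threshold. With an absolute log2 size of 1 required as well, 116 genes were higher and 92 lower in PS-SO3H roots, and 24 and 26 list members. At an adjusted p of at most 0.001 with that size, 80 and 56 genes and 20 and 18 list members were called. At an adjusted p below 0.01 the counts were 474 and 321 genes. Under the strict rule 115 genes were higher and 57 lower with PS-SO3H than with PS-NH2, and 129 higher and 40 lower in root than in leaf. For the particle difference at an adjusted p below 0.05, taking the assumed shared control variance out gave 1431 higher and 695 lower genes, against 532 and 229 with it in. Re-centring on the median gene, which itself lay at -0.0039, gave 688 and 464 genes and is no test of the scaling, and a mean level of at least 10 gave 708 and 482. The median log2 fold change of each of the 42 lists kept its sign with 10 added to the levels. The 284 genes named by the rule include some that were not called, so the next counts are of unchanged outcomes and not of genes that passed. The outcome was the same for 242 at an adjusted p below 0.01, for 94 with the size of 1 and for 81 under the strict rule.

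No paired analysis was possible because the authors' deposited tables hold 1 value per group. For the same reason edgeR against DESeq2, leaving out each library and the replicate block were not run, and the depth of a library is unknown. Genes with a mean level below 10, 3724 in number, had 5 calls.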

Other observations

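Some gene families outside the lists, grouped by the descriptions in the authors' deposited table after its values were seen, held several called members. Over all genes 2.88% were higher and 1.95% lower. Of 8 major latex protein-like genes 4 were higher in PS-SO3H roots and none lower, and 2 of these are among the abundant transcripts of the root. MLP34 (AT1G70850) stood at 71558 in PS-SO3H roots against 48550.5 in control roots (log2 fold change 0.56 ± 0.09, adjusted p = 9.5e-09), and MLP328 (AT2G01520) at 66768 in PS-SO3H roots against 37352 in control roots (log2 fold change 0.84 ± 0.22, adjusted p = 0.0058). Of 35 cysteine protease genes 7 were higher and none lower. RD21A (AT1G47128), a protease of vacuole and ER bodies, stood at 20529 in PS-SO3H roots against 14762 in control roots (log2 fold change 0.48 ± 0.09, adjusted p = 2.9e-05), and RD19 (AT4G39090) at 28579 in PS-SO3H roots against 21215 in control roots (log2 fold change 0.43 ± 0.09, adjusted p = 1.5e-04). Of 46 MATE exporter genes 9 were higher and 1 lower, with AT1G33100 at 283 in PS-SO3H roots against 119.8 in control roots (log2 fold change 1.24 ± 0.21, adjusted p = 7.2e-07). Of 18 pectate lyase genes, which cut the pectin of the wall, 2 were higher and 6 lower. AT4G24780 stood at 6059.7 in PS-SO3H roots against 10979.8 in control roots (log2 fold change -0.86 ± 0.08, adjusted p = 1.2e-21), and AT3G27400 at 209 in PS-SO3H roots against 589 in control roots (log2 fold change -1.50 ± 0.17, adjusted p = 3.3e-16). Of 309 ribosomal protein genes none was called, and their median log2 fold change was -0.04.

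The deposited table also assigns ontology terms, of which 341 had 20 to 300 genes in it. The counts below stand against 2.88% of all genes higher and 1.95% lower. Root epidermal cell differentiation had 10 of 24 genes higher and none lower, with a median log2 fold change of 0.64. Defense response by cell wall thickening had 10 of 29 higher and 2 lower, drug transport 13 of 66 higher and 2 lower, and indoleacetic acid metabolic process 24 of 125 higher and 4 lower. Plant-type cell wall modification was split, with 7 of 43 higher and 7 lower. By the share of genes lower, anatomical structure formation involved in morphogenesis came first with 7 of 24 lower and 2 higher, before glucan metabolic process with 6 of 26 lower and 3 higher, and response to external stimulus with 14 of 78 lower and none higher. Further down, meristem maintenance had 24 of 199 genes lower and none higher, and was chosen after its values were seen. The 22 root meristem genes of the list used above had no call, so the term and the list differ in content. Terms share genes and were ranked by their share of genes called in each direction, with no test of enrichment.

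Outside all lists, AT1G19960 stood at 1779.7 in PS-SO3H roots against 312 in control roots (log2 fold change 2.51 ± 0.13, adjusted p = 8.6e-75), AT2G16005, of the MD-2-related lipid recognition family, at 3237 in PS-SO3H roots against 945 in control roots (log2 fold change 1.78 ± 0.30, adjusted p = 3.8e-07), and the jacalin lectin gene AT1G52120 at 103 in PS-SO3H roots against 26.1 in control roots (log2 fold change 1.98 ± 0.31, adjusted p = 3.3e-08). These genes were chosen after their values were seen.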
